A study of Mus musculus with 9 samples.

Results

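The genes described here are 10 genes that mark or specify the deep-layer projection neurons of the cerebral cortex, followed through a knockdown of the glypicans Gpc4 and Gpc2 in the embryonic mouse cortex. They were Bcl11b, Fezf2, Tbr1, Foxp2, Sox5, Tle4, Zfpm2, Ldb2, Crym and Nxph3, 10 of the 78275 gene IDs counted. The choice was by name for their known roles, made with earlier results of these data known. All 10 were found by symbol. The filter on low counts kept 9 of them, and Crym was the exception. Glypicans are heparan sulfate proteoglycans held on the cell surface by a lipid anchor. Plasmids expressing mCherry, a red fluorescent protein, together with a short hairpin embedded in a microRNA backbone were electroporated in utero into wild-type embryos at E14.5. The hairpin targeted Gpc4 in the sh-Gpc4 group, Gpc2 in the sh-Gpc2 group, or carried a scrambled sequence in the sh-NT group, so all 3 groups share the electroporation, the plasmid backbone and the reporter. After 48 h, at E16.5, mCherry-positive forebrain cells, labelled as cortical progenitors and neurons, were isolated by fluorescence-activated sorting and their RNA was sequenced, with 3 libraries in each group. The labels do not say how many hairpins were used per gene or whether embryos were pooled. Library numbers below are those of the count columns, which run differently from the numbers in the sample titles and so name a library only. Nothing in the labels ties the libraries to separate litters or embryos, so p-values measure the spread between libraries, which may be technical.

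Deep-layer neurons leave the cell cycle early in corticogenesis and settle in layers 5 and 6, whereas neurons born later settle in the upper layers. A small network of mutually repressive transcription factors sets their subtype. Fezf2 and its downstream factor Bcl11b (also called Ctip2) direct the subcerebral neurons of layer 5, Tbr1 directs the corticothalamic neurons of layer 6 and represses Fezf2, and Sox5 times the sequence in which the deep-layer subtypes arise. Electroporation at E14.5 reaches the progenitors at the ventricle, whose later offspring are mostly upper-layer neurons, and a cell that had already left the ventricle is not transfected.

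The promoter windows of 3 members are shown because these genes hold the main positions of the network (the layer 5 factor Fezf2, the layer 6 factor Tbr1) or moved opposite to Fezf2 across libraries (Sox5). Each window runs 5′ to 3′ from 250 bases before to 50 bases after a gene start annotated by RefSeq, in build GRCm38.p6. Capitals mark GGGCGG (the GC box), and AACAAT or ACAAAG (core letters bound by SOX proteins), on either strand.
Fezf2, chr14:12345816-12346115, minus strand: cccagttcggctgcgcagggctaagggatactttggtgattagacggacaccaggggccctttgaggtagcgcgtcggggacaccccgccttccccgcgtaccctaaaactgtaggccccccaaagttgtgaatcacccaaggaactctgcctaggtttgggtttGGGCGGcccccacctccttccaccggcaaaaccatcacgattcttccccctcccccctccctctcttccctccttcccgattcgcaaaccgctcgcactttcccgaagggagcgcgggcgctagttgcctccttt
Tbr1, chr2:61804203-61804502, plus strand: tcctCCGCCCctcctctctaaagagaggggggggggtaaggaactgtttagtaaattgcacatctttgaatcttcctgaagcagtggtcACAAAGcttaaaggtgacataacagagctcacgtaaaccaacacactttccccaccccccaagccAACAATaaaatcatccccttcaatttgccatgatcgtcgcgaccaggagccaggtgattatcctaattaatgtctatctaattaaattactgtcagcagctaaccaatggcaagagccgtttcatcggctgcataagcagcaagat
Sox5, chr6:143947057-143947356, minus strand: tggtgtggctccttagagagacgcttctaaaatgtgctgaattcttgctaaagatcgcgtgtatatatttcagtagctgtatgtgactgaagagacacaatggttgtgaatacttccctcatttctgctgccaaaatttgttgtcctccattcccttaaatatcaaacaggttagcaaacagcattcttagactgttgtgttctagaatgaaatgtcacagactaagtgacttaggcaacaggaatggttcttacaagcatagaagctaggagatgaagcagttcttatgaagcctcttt
The RefSeq start used for Sox5 lies 834871 bases inside the GENCODE M21 gene from its 5′ end, so this window is that of an internal start. The starts used for Fezf2 and Tbr1 lie 2324 and 1523 bases inside their genes. Windows were found for 5 of the 10 members, with 2 windows for Tle4. The Fezf2 window held 1 GC box and neither SOX core. The Tbr1 window held AACAAT at position -96, ACAAAG at position -161 and a GC box on its minus strand at position -246, counted from the gene start. The Sox5 window held none of these. Among all 32851 windows of the same length, 10.7% held AACAAT, 18.7% held ACAAAG and 35.7% held GGGCGG on either strand. GGTGTGA, the core letters bound by T-box proteins such as Tbr1, was in 3.98% of all windows and in none of the windows of the 5 members. The G+C content was 61.3% in the Fezf2 window, 46.0% in the Tbr1 window and 39.7% in the Sox5 window, beside a median of 52.7% over all windows. A match is a run of letters and not a shown binding site.

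The libraries held 48045603 to 66538437 counted reads. The first principal component of log2 CPM, over 11968 genes, took 71.6% of the variance and set 2 libraries apart from the rest, sh-Gpc4 3 with a score of 46.7 and sh-Gpc2 4 with 36.6. sh-Gpc4 4 scored 15.8 and sh-Gpc4 1 -5.7, sh-Gpc2 1 and 2 scored -17.7 and -19.1, and the sh-NT libraries -25.8 to -13.1. All sh-Gpc4 libraries, not only sh-Gpc4 3, thus scored above all sh-NT libraries. A difference between these groups cannot be told apart from this component. In sh-Gpc4 3 and sh-Gpc2 4, the 4371 genes with transcripts over 55% G+C were lower than their mean over libraries by a median of -0.37 and -0.23 (log2). In the same 2 libraries, the 6443 genes under 45% G+C were higher by a median of 0.15 and 0.09 (log2). The targeted transcripts were lower in their own groups without passing the test. Gpc4 was at 99.9 to 137 CPM (read counts scaled to library size with TMM) in sh-Gpc4 libraries, against 165 to 188 CPM in sh-NT libraries. Gpc2 was at 79.6 to 167 CPM in sh-Gpc2 libraries, against 161 to 207 CPM in sh-NT libraries. Gpc2 was also at 70.3 to 168 CPM in sh-Gpc4 libraries, so it was low in both libraries that lay apart. Gpc4 was at 145, 216 and 116 CPM in sh-Gpc2 libraries 1, 2 and 4, so it too was lowest in the libraries that lay apart. Library sh-NT 1 also held some markers of ventral forebrain. The 10 genes listed for GABAergic interneurons summed to 41.1 CPM there and to 5.41 to 9.92 CPM in the other 8 libraries. Ebf1, a gene of striatal neurons, was at 8.95 CPM there and at 1.27 to 2.22 CPM elsewhere. The 10 listed striatal genes, Ebf1 among them, summed to 1015 CPM in sh-NT 1, inside the 870 to 1093 CPM of the other 8 libraries. The 12 listed microglia and macrophage genes summed to 1628 to 2310 CPM in sh-Gpc4 libraries, 598 to 2164 CPM in sh-Gpc2 libraries and 1150 to 1785 CPM in sh-NT libraries.

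The sorted cells held transcripts of every member, at levels that ranged from abundant to close to absent. Per kilobase of exon, the median level over the 9 libraries was 16.9 CPM per kb for Sox5 and 9.47 CPM per kb for Bcl11b. It was 6.34 for Tbr1, 4.94 for Fezf2 and 4.41 for Tle4, then 2.84 for Foxp2 and 2.48 for Ldb2, all in CPM per kb. Zfpm2 followed at 0.762 CPM per kb, Nxph3 at 0.233 CPM per kb and Crym at 0.0208 CPM per kb. On the same scale the upper-layer genes Pou3f2, Cux2 and Cux1 had medians of 141, 25.3 and 19.4 CPM per kb, all above the median of Sox5 on this length. Only these 3 of the 13 listed upper-layer genes were placed on this scale. The upper-layer list as a whole is therefore not compared with the members here. Of the 9 neighbouring pairs in the order of members, 3 had ranges that overlapped across libraries, namely Bcl11b with Tbr1, Fezf2 with Tle4, and Foxp2 with Ldb2. Bcl11b was still above Tbr1 in 9 of 9 libraries. Fezf2 was above Tle4 in 6 of 9, and Foxp2 above Ldb2 in 7 of 9, so those 2 pairs have no fixed order. When the length of the longest transcript was used in place of all exon bases, Foxp2 moved up to the fourth place, ahead of Fezf2 and Tle4. On that length Sox5 had a median of 33.5 CPM per kb, above Cux1 at 30.2 and Cux2 at 29.0 CPM per kb, with overlapping ranges. The order of Sox5 with Cux1 and with Cux2 thus depends on the length used. In bulk RNA, fewer cells of a type and less RNA per cell cannot be told apart.

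**Figure D1:**
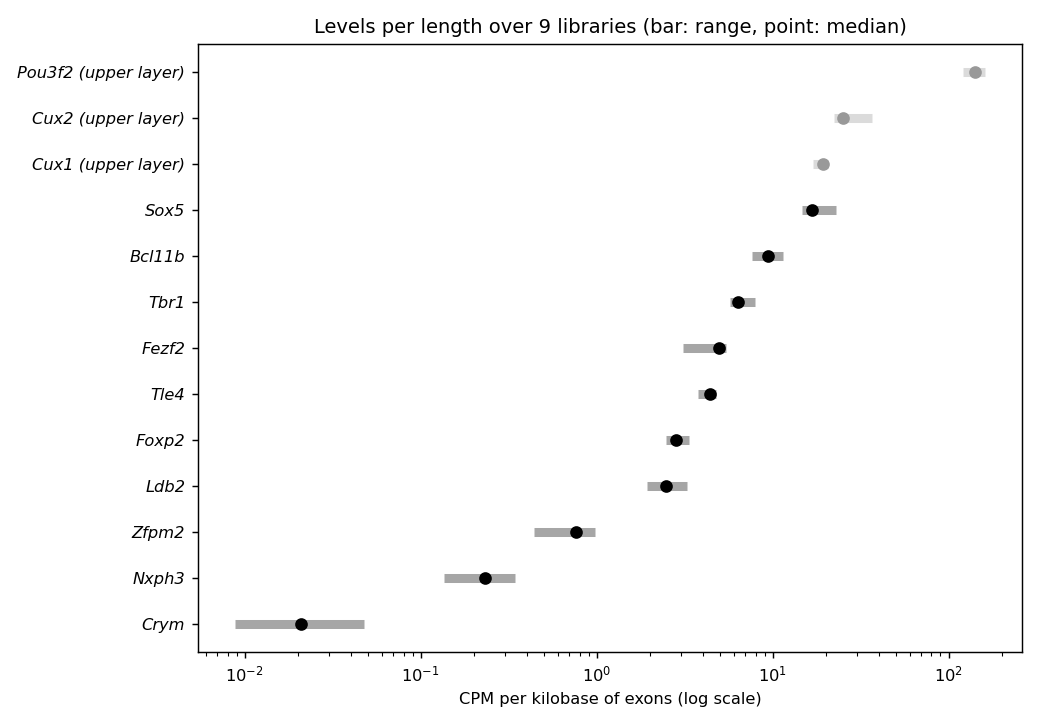
Level in CPM per kilobase of exon, on a log axis, of the 10 deep-layer genes (black points) and of 3 upper-layer genes (grey points). Points are medians and bars the range over all 9 libraries, and the members run from Sox5 at a median of 16.9 to Crym at 0.0208 CPM per kb.

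No member passed the test in any of the 3 comparisons. In sh-Gpc4 against sh-NT, 0 of 9 tested members had an adjusted p under 0.05 by edgeR's quasi-likelihood test, beside 0.0% of all 27773 tested genes. At an unadjusted p under 0.05 it was again 0 of 9, beside 9.57% of all genes. The comparison of sh-Gpc2 with sh-NT gave 0 of 9 members at an adjusted p under 0.05 (0.0% of all genes) and 0 of 9 at an unadjusted p (2.56% of all genes). In sh-Gpc4 against sh-Gpc2 it was 0 of 9 at an adjusted p (0.0% of all genes) and 1 of 9, Foxp2, at an unadjusted p (2.89% of all genes). DESeq2's Wald test and limma voom with sample weights also called 0 of 9 members in each comparison. Over all 27773 genes DESeq2 called 45 in sh-Gpc4 against sh-NT and 0 in the other comparisons, and limma voom called 0 in each. The smallest adjusted p of any member under any of 20 other settings was 0.0713, for Zfpm2 in sh-Gpc4 against sh-NT by limma voom. In that fit 9011 of all 27773 genes had an unadjusted p under 0.05, and the smallest limma voom adjusted p of any gene was 0.0531. A low value there is thus not particular to Zfpm2.

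**Figure D2:**
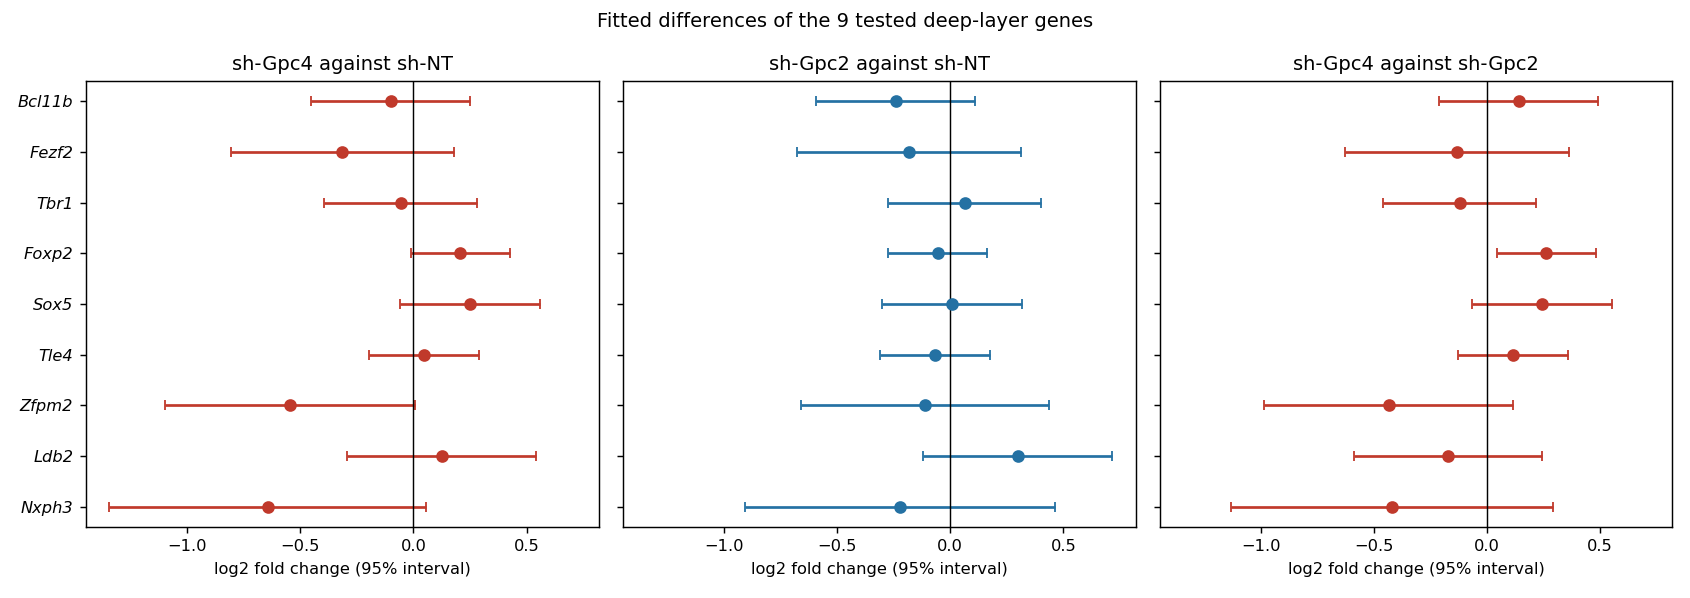
Fitted log2 fold changes with 95% intervals (edgeR, all 9 libraries) of the 9 tested members in each of the 3 comparisons, 1 row per gene. Of the 27 intervals, that of Foxp2 in sh-Gpc4 against sh-Gpc2, from 0.04 to 0.48, lies wholly on one side of 0.

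Fezf2 (chromosome 14, 12342094-12348189, minus strand, in GRCm38 with GENCODE M21 gene models, as for all genes below), the zinc-finger factor that selects subcerebral fate, was at 12.3, 10.2 and 15.1 CPM in sh-Gpc4 libraries 1, 3 and 4, at 16.3, 15.5 and 9.40 CPM in sh-Gpc2 libraries 1, 2 and 4, and at 13.8, 16.7 and 16.3 CPM in sh-NT libraries 1, 2 and 4. The lowest values came from the 2 libraries that lay apart, and the groups overlapped. Its log2 fold change was -0.31 in sh-Gpc4 against sh-NT (SE 0.22, 95% interval -0.81 to 0.18, edgeR adjusted p = 0.534) and -0.18 in sh-Gpc2 against sh-NT (interval -0.67 to 0.31, edgeR adjusted p = 0.968). Without sh-Gpc4 3 and sh-Gpc2 4, the values were -0.19 and 0.01, and with the G+C trend across genes removed that of sh-Gpc4 against sh-NT was -0.06.

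Bcl11b (chromosome 12, 107910403-108003602, minus strand), the zinc-finger factor needed for the axons of corticospinal neurons, was at 61.6, 92.8 and 76.8 CPM in sh-Gpc4 libraries, 77.6, 69.6 and 62.7 CPM in sh-Gpc2 libraries and 84.8, 72.3 and 90.9 CPM in sh-NT libraries, in the same library order. Both the lowest and the highest value belonged to sh-Gpc4 libraries, so that group spanned the other 2. Its log2 fold change was -0.10 in sh-Gpc4 against sh-NT (SE 0.16, interval -0.45 to 0.25) and -0.24 in sh-Gpc2 against sh-NT (SE 0.16, interval -0.59 to 0.11). Bcl11b is also known from striatal neurons and interneurons. Without sh-NT 1, the library high in the listed interneuron genes, its log2 fold change in sh-Gpc4 against sh-NT was -0.08.

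Ldb2 (chromosome 5, 44472132-44799680, minus strand), a cofactor of LIM-domain proteins that marks corticospinal neurons, was at 7.47, 10.5 and 8.13 CPM in sh-Gpc4 libraries, 8.28, 10.8 and 10.3 CPM in sh-Gpc2 libraries and 9.17, 8.25 and 6.46 CPM in sh-NT libraries. The groups overlapped, although 2 of 3 sh-Gpc2 libraries were above every sh-NT library. Its log2 fold change in sh-Gpc2 against sh-NT, 0.30 (SE 0.19, interval -0.12 to 0.72, edgeR adjusted p = 0.968), was the highest of the 9 members in that comparison. In sh-Gpc4 against sh-NT it was 0.13 (interval -0.29 to 0.54).

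Crym (chromosome 7, 120186380-120202111, minus strand), which encodes a thyroid hormone-binding protein of mature subcerebral neurons, was close to absent. It had 4, 2 and 11 reads in sh-Gpc4 libraries, 4, 2 and 4 reads in sh-Gpc2 libraries and 2, 3 and 4 reads in sh-NT libraries. That is 0.0300 to 0.162 CPM over all 9 libraries. The gene did not pass the filter, and no fold change is given.

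Tbr1 (chromosome 2, 61802930-61814114, plus strand), the T-box factor of layer 6 corticothalamic neurons, was at 31.3, 41.4 and 32.5 CPM in sh-Gpc4 libraries, 43.8, 33.8 and 36.7 CPM in sh-Gpc2 libraries and 34.8, 33.3 and 41.3 CPM in sh-NT libraries. The 3 groups spanned nearly the same range. Its log2 fold change was -0.06 in sh-Gpc4 against sh-NT (SE 0.15, interval -0.39 to 0.28) and 0.06 in sh-Gpc2 against sh-NT (SE 0.15, interval -0.27 to 0.40). As folds, these intervals run from 0.761 to 1.21 and from 0.827 to 1.32.

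Sox5 (chromosome 6, 143828425-144781977, minus strand), the SoxD factor of layer 6 and subplate neurons, was the most abundant member, at 241, 329 and 259 CPM in sh-Gpc4 libraries, 219, 212 and 269 CPM in sh-Gpc2 libraries and 244, 211 and 242 CPM in sh-NT libraries. The highest values came from the 2 libraries that lay apart. Its log2 fold change in sh-Gpc4 against sh-NT was 0.25 (SE 0.14, interval -0.06 to 0.56, edgeR adjusted p = 0.488), and 0.10 without those 2 libraries. For sh-Gpc2 against sh-NT it was 0.01 (interval -0.30 to 0.32), and -0.12 without them. Sox5 shares 1330 exon bases with Sox5os1 on the opposite strand, which averaged 12.2 CPM. Since no source used here states a strand setting for the counting, the reads of the pair over these bases cannot be told apart.

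Tle4 (chromosome 19, 14448150-14598051, minus strand), a Groucho-type corepressor of corticothalamic neurons that lacks DNA binding of its own, was the steadiest member. It was at 25.3, 25.5 and 25.7 CPM in sh-Gpc4 libraries, 25.2, 21.5 and 24.0 CPM in sh-Gpc2 libraries and 23.8, 22.9 and 27.2 CPM in sh-NT libraries. All sh-Gpc4 libraries were above all sh-Gpc2 libraries by a narrow margin and lay inside the sh-NT range. As a fold, sh-Gpc4 against sh-NT was 1.03 with a 95% interval of 0.873 to 1.22, and sh-Gpc2 against sh-NT was 0.955 with an interval of 0.807 to 1.13. These were, with those of Foxp2, the tightest bounds among the members.

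Foxp2 (chromosome 6, 14901349-15441977, plus strand), a forkhead factor of layer 6 neurons, was at 53.5, 54.5 and 52.0 CPM in sh-Gpc4 libraries, 46.4, 46.4 and 40.6 CPM in sh-Gpc2 libraries and 50.4, 43.6 and 44.6 CPM in sh-NT libraries. All 3 sh-Gpc4 libraries were above all 6 others, a pattern that 1.34% of all tested genes, 373 in number, had. Foxp2 averaged 53.3 ± 1.26 CPM in sh-Gpc4 libraries, 44.5 ± 3.32 CPM in sh-Gpc2 libraries and 46.2 ± 3.68 CPM in sh-NT libraries (SD, n = 3 each). The log2 fold change was 0.21 in sh-Gpc4 against sh-NT (SE 0.10, interval -0.01 to 0.43, edgeR adjusted p = 0.488). In sh-Gpc4 against sh-Gpc2 it was 0.26 (SE 0.10, interval 0.04 to 0.48), with an unadjusted p of 0.0239 and an edgeR adjusted p of 0.966. The exact permutation test, two-sided, gave p = 0.1 in both, the smallest that 3 against 3 libraries can give. Without the 2 libraries that lay apart the fold changes were 0.18 and 0.19, and without sh-NT 1 that against sh-NT was 0.27. Removing the G+C trend brought them to 0.10 and 0.20. With libraries scaled to genes of postmitotic neurons they were 0.20 and 0.19, and the sh-Gpc4 and sh-Gpc2 groups then overlapped for Foxp2.

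Zfpm2 (chromosome 15, 40655035-41104592, plus strand), a zinc-finger cofactor of GATA proteins also called Fog2 and known from corticothalamic neurons, was at 6.05, 4.20 and 6.08 CPM in sh-Gpc4 libraries, 7.91, 9.38 and 4.76 CPM in sh-Gpc2 libraries and 7.93, 8.62 and 7.27 CPM in sh-NT libraries. Every sh-Gpc4 library was below every sh-NT library, while the sh-Gpc2 libraries spanned both. Zfpm2 averaged 5.44 ± 1.08 CPM in sh-Gpc4 libraries, 7.35 ± 2.36 CPM in sh-Gpc2 libraries and 7.94 ± 0.677 CPM in sh-NT libraries (SD, n = 3 each). The fitted fold in sh-Gpc4 against sh-NT was 0.685, which is -0.55 on the log2 scale (95% interval -1.10 to 0.01, SE 0.25, edgeR adjusted p = 0.488, two-sided exact permutation p = 0.1). It was -0.40 without the 2 libraries that lay apart and -0.63 with the G+C trend removed. In sh-Gpc2 against sh-NT it was -0.11 (interval -0.66 to 0.44), and 0.11 without those libraries.

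Nxph3 (chromosome 11, 95509845-95514570, minus strand), a secreted ligand of neurexins found in layer 6 and subplate neurons, was scarce. It had 22, 19 and 29 reads in sh-Gpc4 libraries, 36, 36 and 15 reads in sh-Gpc2 libraries and 36, 29 and 41 reads in sh-NT libraries. In CPM this was 0.439, 0.285 and 0.427 in sh-Gpc4 libraries, 0.636, 0.581 and 0.305 in sh-Gpc2 libraries and 0.579, 0.489 and 0.725 in sh-NT libraries. All sh-Gpc4 libraries were below all sh-NT libraries. The log2 fold change in sh-Gpc4 against sh-NT, -0.64 (SE 0.31, interval -1.34 to 0.06, edgeR adjusted p = 0.488), was -0.47 without the 2 libraries that lay apart and -0.27 with the G+C trend removed. Its longest transcript has 60.2% G+C, and at these read numbers the interval in sh-Gpc2 against sh-NT, from -0.91 to 0.46, leaves room for a large change in either direction.

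**Figure D3:**
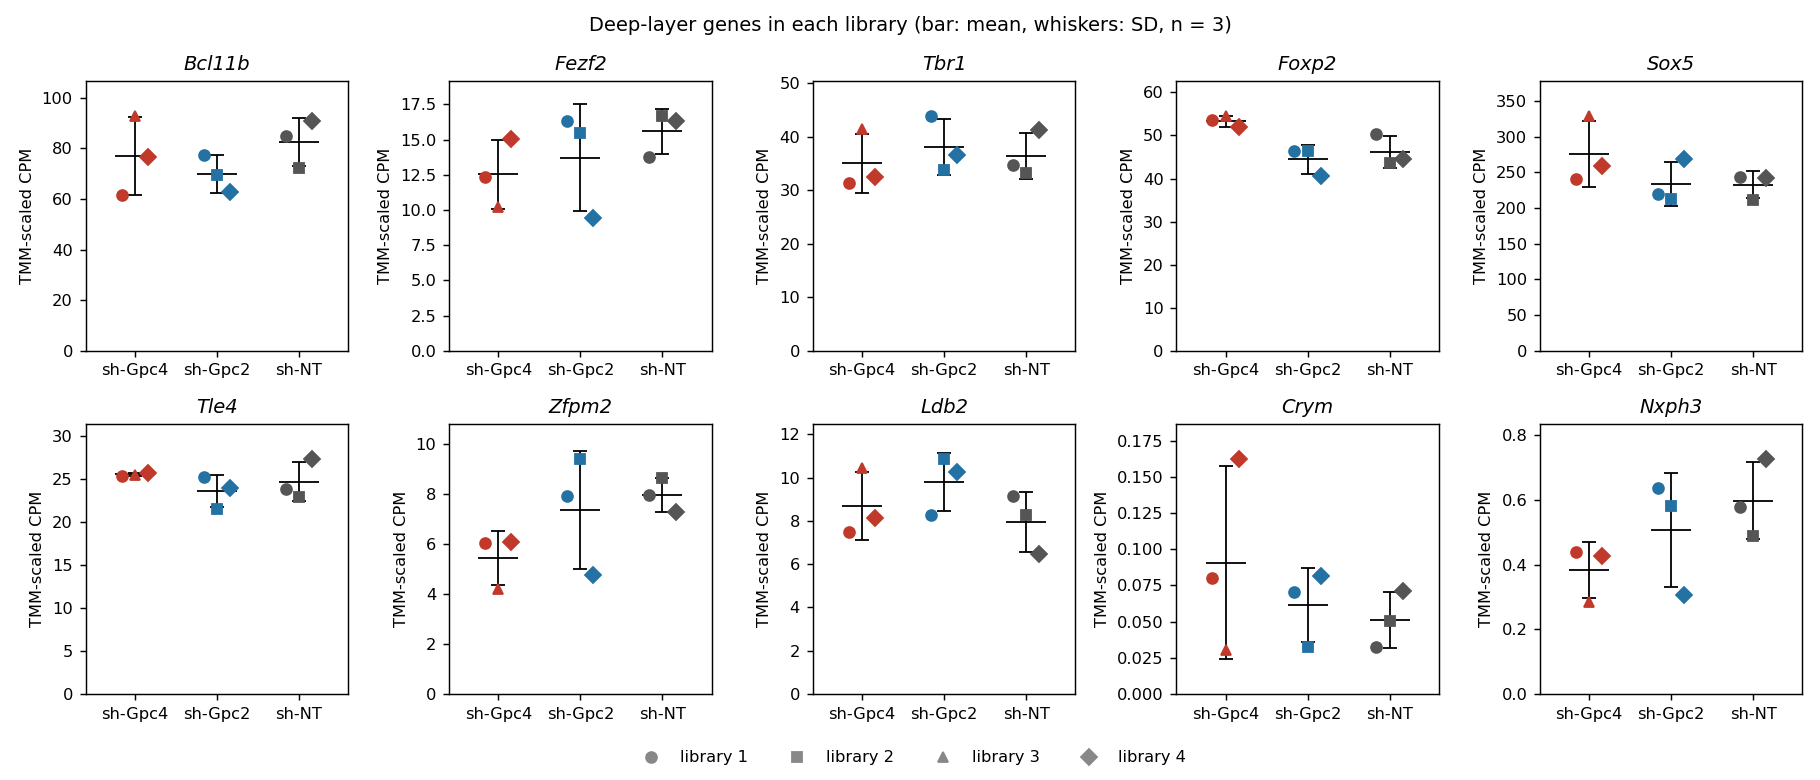
TMM-scaled CPM of the deep-layer genes in every library, 1 panel per gene with its own axis, sh-Gpc4, sh-Gpc2 and sh-NT from left to right, with the mean and SD of 3 libraries. Foxp2 in sh-Gpc4 libraries (52.0 to 54.5 CPM) lies above all other libraries, while most panels show overlapping groups.

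Counted together, the members did not move one way. In sh-Gpc4 against sh-NT, 4 of the 9 tested members had a positive and 5 a negative log2 fold change, with a median of -0.06, beside 0.02 over all tested genes. The groups did not overlap for 3 of 9 members, beside 24.0% of all genes, a share near the background. Foxp2 was the 1 member that was higher (10.8% of all genes), and Zfpm2 and Nxph3 the 2 that were lower (13.2% of all genes). In sh-Gpc2 against sh-NT, 3 were positive and 6 negative, with a median of -0.07, beside 0.003 over all genes. There the groups overlapped for every tested member, that is 0 of 9 did not overlap, beside 7.7% of all genes (3.59% higher and 4.11% lower). These signs were not stable where values were near 0. With the G+C trend removed the split in sh-Gpc4 against sh-NT was 5 positive and 4 negative with a median of 0.03. In sh-Gpc2 against sh-NT it was 5 positive and 4 negative with scaling to neuron genes, and again without the 2 libraries that lay apart. Other settings widened the split. Without those 2 libraries, sh-Gpc4 against sh-NT had 3 positive and 6 negative values with a median of -0.19, beside 0.004 over all genes. With the G+C trend removed, sh-Gpc2 against sh-NT had 2 positive and 7 negative values with a median of -0.08, beside 0.01 over all genes. sh-Gpc4 and sh-Gpc2 share the sh-NT libraries, so these comparisons are not independent.

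Set directly against each other, the knockdowns gave 4 positive and 5 negative values in sh-Gpc4 against sh-Gpc2, with a median of -0.12, beside -0.002 over all genes. Foxp2 and Tle4 did not overlap and were higher in sh-Gpc4, 2 of 9 members, beside 5.5% of all genes for either direction and 3.5% for higher. No member was lower without overlap, beside 2.0% of all genes. This count rose when libraries were left out, as did the share of all genes, since smaller groups overlap less often. Without sh-Gpc2 4 it was 6 of 9 (29.0% of all genes), without sh-Gpc4 3 it was 4 of 9 (10.8% of all genes), and without both it was 8 of 9 (35.3% of all genes). That last setting was added after the data were seen and leaves 2 libraries in each knockdown group. In it, Foxp2, Sox5 and Tle4 were higher in both sh-Gpc4 libraries, Fezf2, Tbr1, Zfpm2, Ldb2 and Nxph3 were lower, and Bcl11b overlapped. With libraries scaled to genes of postmitotic neurons the count was 0 of 9 (4.54% of all genes).

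Several members differed between the 2 libraries that lay apart and the rest. Sox5 was highest in sh-Gpc4 3 and sh-Gpc2 4, while Fezf2, Zfpm2 and Nxph3 were lowest in the same 2 libraries. Relative to the other 7 libraries, the mean in those 2 differed by 0.36 (log2) for Sox5, -0.62 for Fezf2, -0.75 for Zfpm2 and -0.82 for Nxph3. It differed by 0.32 for Ldb2, 0.13 for Tbr1, 0.01 for Bcl11b and for Tle4, and -0.03 for Foxp2, so the members did not fall into 2 clear classes. The longest transcripts of Fezf2 and Nxph3 have 55.9% and 60.2% G+C, and those of Sox5 and Zfpm2 44.8% and 44.0%. Over all 9 libraries, Pearson's r with the score on the first principal component was 0.91 for Sox5, -0.95 for Zfpm2, -0.88 for Nxph3 and -0.85 for Fezf2. It was 0.06 to 0.42 for the other tested members. Why these members differed in the 2 libraries was not tested. Over the 7 remaining libraries, Pearson's r between log2 levels was largest in size for Tle4 with Ldb2 (-0.89), Fezf2 with Foxp2 (-0.88), Tbr1 with Nxph3 (0.85) and Sox5 with Zfpm2 (-0.83). Over the same 7 libraries it was 0.55 for Fezf2 with Zfpm2, -0.49 for Sox5 with Fezf2 and -0.24 for Sox5 with Nxph3, where over all 9 libraries these were 0.87, -0.78 and -0.75. These are descriptions over 7 libraries that share their scaling, of 36 pairs computed.

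**Figure D4:**
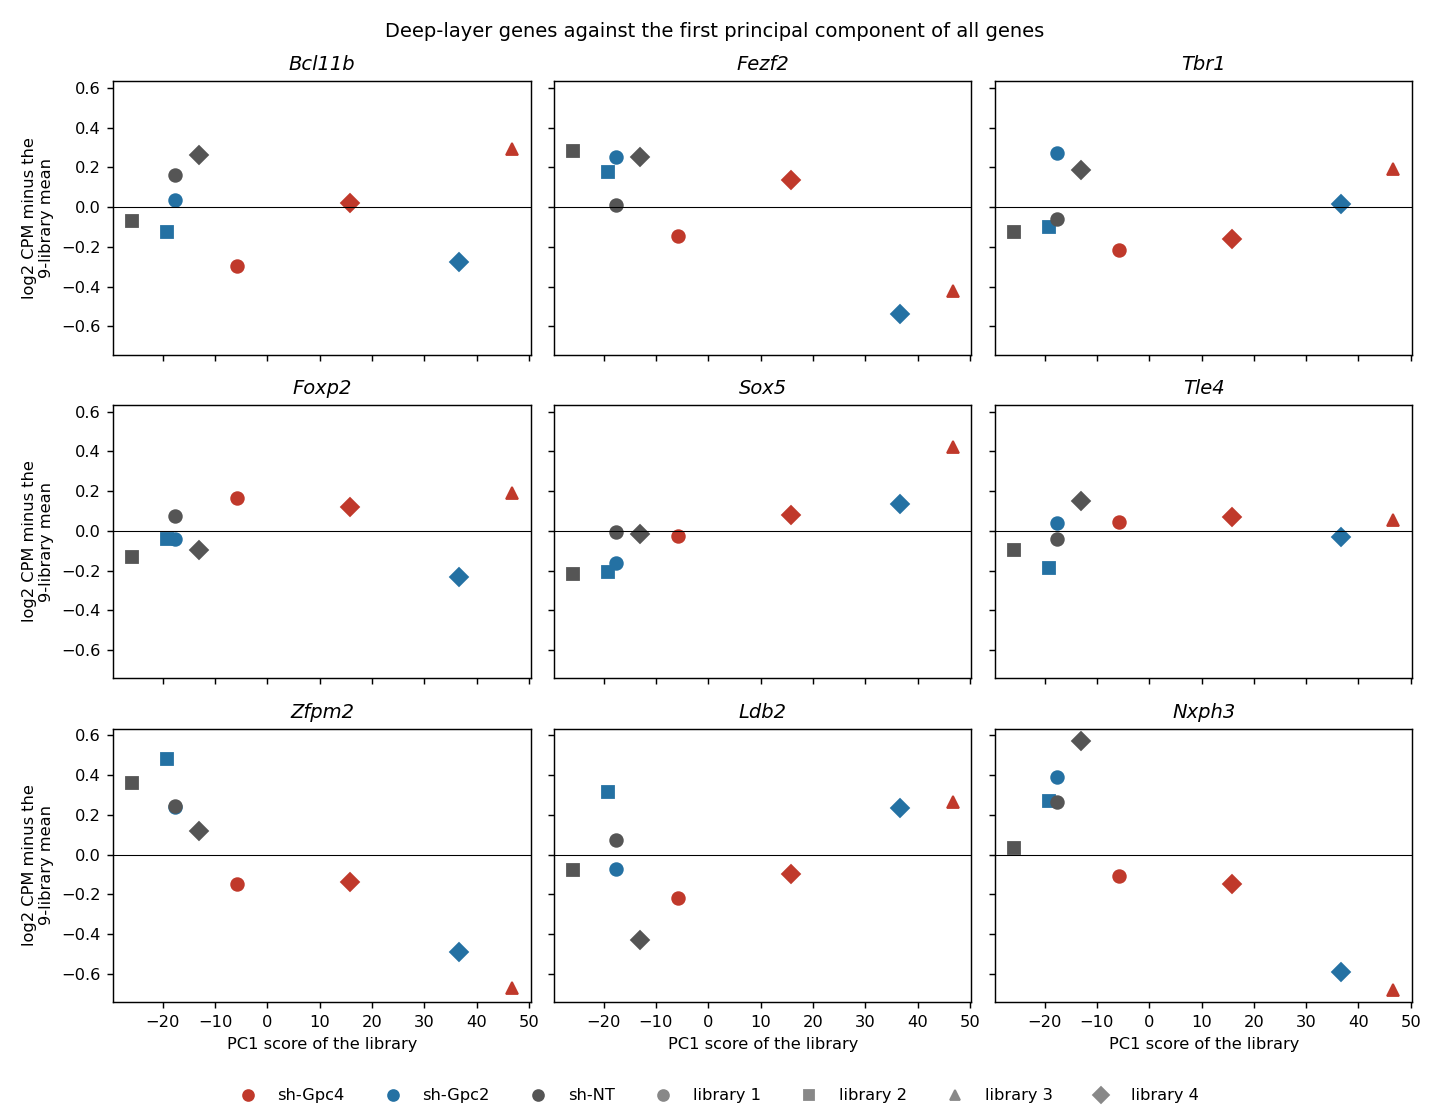
Deviation of each member from its mean over libraries (log2) against the library's score on the first principal component of all genes. Sox5 lies highest and Fezf2, Zfpm2 and Nxph3 lowest in the 2 libraries at the right, sh-Gpc4 3 and sh-Gpc2 4, with scores of 46.7 and 36.6.

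Ratios between opposed factors, chosen after the values were seen, compare members within a library and so do not depend on its scaling. They do depend on differences between libraries tied to G+C content, for which they were not adjusted. The longest transcripts of Sox5, Tbr1 and Fezf2 have 44.8%, 51.9% and 55.9% G+C. The log2 ratio of Fezf2 to Tbr1 was -1.49 ± 0.48 in sh-Gpc4, -1.51 ± 0.42 in sh-Gpc2 and -1.23 ± 0.20 in sh-NT libraries (SD, n = 3 each). Sox5 to Fezf2 was 4.47 ± 0.48 in sh-Gpc4, 4.12 ± 0.62 in sh-Gpc2 and 3.90 ± 0.24 in sh-NT libraries (SD, n = 3 each), with values of 5.01 in sh-Gpc4 3 and 4.84 in sh-Gpc2 4. The 6 two-sided exact permutation tests of these ratios gave p of 0.2 to 0.9, where 0.1 is the smallest possible.

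**Figure D5:**
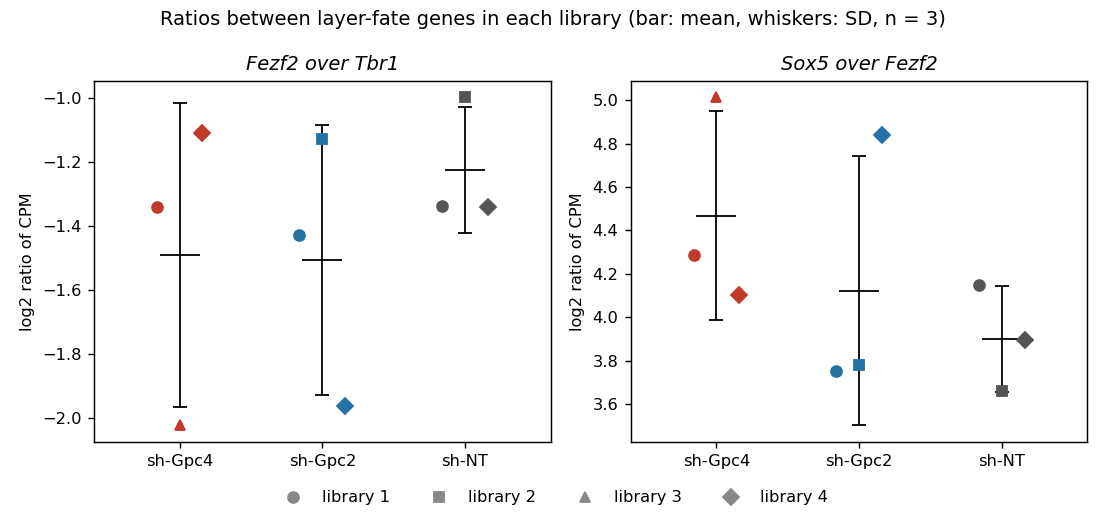
Log2 ratio of CPM of Fezf2 over Tbr1 and Sox5 over Fezf2 in each library, with the group mean and SD of 3 libraries. Sox5 over Fezf2 is highest in sh-Gpc4 3 (5.01) and sh-Gpc2 4 (4.84), and the groups overlap in both panels.

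The genes with patterns most like those of the members over the 9 libraries were named by Pearson's r among 9822 genes of at least 10 CPM, as a measure of likeness only. For Foxp2 these were Zfp599 (r = 0.91), Gapvd1 (0.90) and Ubr1 (0.85). For Tle4 they were Hs6st2, a heparan sulfate sulfotransferase (0.97), Rmnd5b (0.95) and Jmy (0.95). Bcl11b was most like the kinase gene Pak1 (0.87), Qser1 (0.85) and Socs6 (0.84), and Tbr1 most like Ubfd1 (0.87), Rab10os (0.86) and Rgmb (0.84). Ldb2 was most like Exosc2, Odf2l and Rbm28 (0.93, 0.92 and 0.92). For the members that were highest or lowest in both libraries that lay apart, r was 0.95 to 0.97 for Fezf2 (Pard6g, BC049715 and Elac2), 0.98 to 0.99 for Sox5 (Pgm2l1, Hdgfl3 and Mbtd1), 0.99 for Zfpm2 (Capn2, Chaf1a and Sox8) and 0.97 to 0.99 for Nxph3 (Pom121, Fam126a and Mpped2).

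Other genes known from layers 5 and 6 held no call by edgeR, as must any list where 0.0% of all 27773 tested genes passed. Of the 18 listed, 0 passed in any comparison by edgeR. In sh-Gpc4 against sh-NT, 10 were positive and 8 negative with a median log2 fold change of 0.10, and 3 had an unadjusted p under 0.05 (9.57% of all genes). Wnt7b, a secreted signalling protein, was at 56.6 ± 23.7 CPM in sh-Gpc4 libraries, against 155 ± 21.3 CPM in sh-NT libraries (SD, n = 3 each), a log2 fold change of -1.45 (SE 0.47, edgeR adjusted p = 0.488). It was lowest in sh-Gpc4 3 (36.2 CPM) and sh-Gpc2 4 (40.7 CPM), the libraries that lay apart. Cdh13, a cadherin held by a lipid anchor, was at 20.4 ± 3.38 CPM in sh-Gpc4 libraries, against 15.1 ± 2.02 CPM in sh-NT libraries (log2 fold change 0.43, SE 0.16). Igfbp4, a growth factor-binding protein of layer 5, was at 19.0 ± 3.96 CPM in sh-Gpc4 libraries, against 28.6 ± 2.06 CPM in sh-NT libraries (-0.59, SE 0.25). Lmo3, a LIM-only protein, had a log2 fold change of 0.35 (SE 0.17). In sh-Gpc4 against sh-Gpc2, 12 were positive and 6 negative with a median of 0.04, and 4 of 18 had an unadjusted p under 0.05 (2.89% of all genes), led by Cdh13 (0.56, SE 0.16, edgeR adjusted p = 0.966), and Crim1, Tshz2 and Lmo3 had values of 0.35, -0.53 and 0.40. Scaled to neuron genes, that split was 8 positive and 10 negative with a median of -0.03. Among the same 18 genes, in sh-Gpc2 against sh-NT, 8 were positive and 10 negative with a median of -0.01, and 0 of 18 had an unadjusted p under 0.05. Scaled to neuron genes, it was 12 positive and 6 negative with a median of 0.07. The layer 6 receptor gene Ntsr1 was at 0.645 ± 0.0885 CPM in sh-Gpc2 libraries, against 1.14 ± 0.222 CPM in sh-NT libraries (log2 fold change -0.82, interval -1.86 to 0.22).

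Upper-layer genes, the counterparts of the members, also held no call among 13 listed, beside 0.0% of all genes (edgeR). In sh-Gpc4 against sh-NT, 6 were positive and 7 negative with a median of -0.04. Rorb, a nuclear receptor of layer 4, was at 36.9 ± 1.94 CPM in sh-Gpc4 and 37.1 ± 2.31 CPM in sh-Gpc2 libraries, against 42.5 ± 1.21 CPM in sh-NT libraries (SD, n = 3 each), below every sh-NT library in both. Its log2 fold changes were -0.20 and -0.19 (SE 0.09 each, edgeR adjusted p = 0.488 and 0.968). Cux1, a homeodomain factor, was at 363 ± 21.8 CPM in sh-Gpc4 libraries, against 405 ± 8.54 CPM in sh-NT libraries. Mef2c and Cux2 had log2 fold changes of 0.47 and -0.26. In sh-Gpc2 against sh-NT, 1 of 13 was positive and 12 negative with a median of -0.08, when the 15 genes of postmitotic excitatory neurons had 4 positive and 11 negative values and a median of -0.09. With libraries scaled to those neuron genes the upper-layer split was 5 positive and 8 negative with a median of -0.01. The median of all genes was then 0.07 (log2). Without the 2 libraries that lay apart, the upper-layer split stayed at 1 positive and 12 negative with a median of -0.19. The median was then -0.07 for the neuron genes and -0.008 for all genes. With the G+C trend removed it was 3 positive and 10 negative with a median of -0.07, beside -0.04 for the neuron genes.

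Among 14 genes that repress or cooperate with the members, 0 passed by edgeR (0.0% of all genes). In sh-Gpc4 against sh-NT, 2 of the 14 had an unadjusted p under 0.05 (9.57% of all genes), both relatives of Tle4. Tle1 was at 40.7 ± 1.61 CPM in sh-Gpc4 libraries, against 34.1 ± 2.49 CPM in sh-NT libraries (log2 fold change 0.26, SE 0.11), and Tle3 at 60.9 ± 14.2 CPM in sh-Gpc4 libraries, against 85.3 ± 2.95 CPM in sh-NT libraries (-0.49, SE 0.21, edgeR adjusted p = 0.488 for each; SD, n = 3 each). Bcl11a, a relative of Bcl11b, had log2 fold changes of -0.22 in sh-Gpc4 and -0.28 in sh-Gpc2, each against sh-NT. Eomes, the T-box factor of intermediate progenitors, had 0.20 in sh-Gpc4 against sh-NT. Of the subplate genes, 7 of 8 were tested and 0 passed by edgeR (0.0% of all genes), with 0 at an unadjusted p under 0.05 in each comparison. Nxph4, the subplate relative of Nxph3, was at 11 ± 6.01 CPM in sh-Gpc4 and 12.5 ± 6.43 CPM in sh-Gpc2 libraries, against 18.3 ± 2.12 CPM in sh-NT libraries (SD, n = 3 each), with log2 fold changes of -0.73 and -0.55 and SE of 0.47 in both. Moxd1 had a log2 fold change of -0.57 in sh-Gpc4 against sh-NT, and Nr4a2 had 0.25 there and 0.34 in sh-Gpc2 against sh-NT.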

How the data were processed

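Per the labels' protocols, a kit for low RNA input, which amplifies cDNA, was used for the 9 libraries. The authors deposited raw read counts per gene, counted with featureCounts of Subread on GRCm38, per the submitters' processing notes. No source used here names the aligner, the annotation release or the strand setting. Symbols came from GENCODE M21 (51486 of 78275 IDs, 65.8%). The edgeR 4.0.16 quasi-likelihood test (R 4.3.3) was fitted to all 9 libraries with TMM and the default filter, which kept 27773 genes, with Benjamini-Hochberg adjustment over these. DESeq2 1.42.0 and limma 3.58.1 were alternatives. The fit was run on simulated counts drawn independently for each gene. These lacked the differences between libraries that many genes share here, so that run does not show how the fit handles them. Levels per kilobase divide CPM by the union of exons. Counts of 2 libraries from the same group always differed beyond sampling noise, with a chi-square of 8.36 to 88.7 for each degree of freedom, so none was treated as a duplicate. The text names all members, up to 4 genes with the smallest p of each other list it describes and, per member, the 3 genes with the most similar pattern. The members and lists were chosen with earlier results of these data known. Total counts of 48045603 to 66538437 make counting error small except for Crym and Nxph3. PCR duplicates cannot be recognised in counts. The single values of 1 listed gene are not reported here; it stays in the counts of its lists.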

Additional observations from a re-analysis of the deposited data

How the results depend on the processing

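None of the 9 tested members was called by edgeR, DESeq2 or limma voom in any of the 20 alternative settings. Over all genes, DESeq2 called 45 in sh-Gpc4 against sh-NT, and no other setting called any gene. Of 537 log2 fold changes of members under alternatives, 502 kept their sign and 35 reversed. Leaving out 1 library at a time gave 18 of these. In sh-Gpc4 against sh-NT, the reversed values were -0.032 for Ldb2 by limma voom and -0.037 without the 2 libraries that lay apart (a setting added after the data were seen), 0.043 for Tbr1 with the G+C trend removed, and for Tle4 -0.0060 with a microglia covariate and -0.0061 with the replicate block. In sh-Gpc2 against sh-NT they were -0.021 for Sox5 by limma voom and -0.028 with the G+C trend removed, 0.018 for Foxp2 and 0.0068 for Tle4 scaled to neuron genes, and, without the 2 libraries that lay apart, 0.014 for Fezf2, -0.12 for Sox5, 0.11 for Zfpm2 and 0.012 for Nxph3. In sh-Gpc4 against sh-Gpc2 they were -0.068 for Bcl11b and 0.083 for Fezf2 with the replicate block, 0.018 for Fezf2 with the G+C trend removed and -0.082 for Bcl11b without the 2 libraries. The cause was not tested. After the group means were removed, same-numbered libraries correlated at -0.10 to 0.68 and differently numbered ones at -0.87 to 0.83. These ranges overlap, so the check cannot tell whether the column numbers pair libraries. The replicate block left 0 genes called in each comparison.

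For the members that reversed when 1 library was left out, the log2 fold changes ran over these ranges: in sh-Gpc4 against sh-NT -0.24 to 0.035 for Bcl11b, -0.019 to 0.24 for Ldb2, -0.18 to 0.040 for Tbr1 and -0.0030 to 0.12 for Tle4; in sh-Gpc2 against sh-NT -0.32 to 0.030 for Fezf2, -0.095 to 0.012 for Foxp2, -0.41 to 0.028 for Nxph3, -0.10 to 0.071 for Sox5, -0.049 to 0.16 for Tbr1, -0.12 to 0.012 for Tle4 and -0.33 to 0.12 for Zfpm2; in sh-Gpc4 against sh-Gpc2 -0.013 to 0.28 for Bcl11b and -0.34 to 0.0081 for Fezf2. The count of members whose groups did not overlap was 3 to 4 in sh-Gpc4 against sh-NT when 1 library was left out, beside 24.0% to 44.4% of all genes. In sh-Gpc2 against sh-NT it was 0 to 2, with 2 without sh-Gpc2 1 (26.6% of all genes) and 2 without sh-NT 1 (14.2%). In sh-Gpc4 against sh-Gpc2 it was 2 to 6 when 1 library was left out, 8 without both libraries that lay apart and 0 scaled to neuron genes. With the longest transcript as length, the median level of the members in sh-NT was 5.92 CPM per kb, against 3.58 CPM per kb with all exon bases. Crym and Nxph3 are limited by depth.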
